A study of Mus musculus with 16 samples.

Results

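Bone marrow derived macrophages differentiating into osteoclasts were compared between an intermediate phase, 12 and 24 h, and a late phase, 48 and 72 h, in the control cultures. The comparison rests on 4 of the 16 arrays of the study, the control arrays that the labels call Intermediate (12 h and 24 h) and Late (48 h and 72 h). All 4 cultures were made from marrow of tibias and femurs of male C57BL/6 mice aged 5 weeks, and all had been given M-CSF, RANKL and the control treatment, which the labels abbreviate DW. RANKL is therefore present on both sides, and what differs is the time in culture. The study also holds 2 arrays at 0 h, control arrays at 3 and 6 h, and cultures with 1 mM dimethyl αKG, a cell-permeant ester of α-ketoglutarate, from 0.5 to 72 h. The αKG arrays at 12, 24, 48 and 72 h give the same step a second time: the 2 differences share no array, although all 16 arrays set the estimate of spread behind both. Each time has 1 array in each treatment, so the spread within a phase includes the change between its times. The labels do not say whether arrays came from separate animals or cultures, so the tests speak only to the spread among these arrays, which may be technical.

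Osteoclasts are multinucleated cells that resorb bone and arise by fusion of precursors of the macrophage lineage. M-CSF keeps the precursors alive, and RANKL, acting through the receptor RANK, induces the transcription factor NFATc1, which activates genes for fusion, attachment to bone, acid secretion and matrix degradation. The mature cell seals off an area of bone, acidifies it with a vacuolar proton pump (V-ATPase) and digests the matrix with cathepsin K and metalloproteinases.

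The phases were checked against 10 defining markers of osteoclasts. At 48 and 72 h all 10 (Acp5, Ctsk, Mmp9, Calcr, Dcstamp, Ocstamp, Atp6v0d2, Itgb3, Oscar and Car2) lay above every earlier control array in both late arrays. By a looser criterion, both late arrays above both intermediate ones, the share of all genes tested was 18.3%. At 12 h 5 of the 10 were above both 0 h arrays, Car2 only narrowly (4.21 against 4.15 and 3.53). At 24 h 7 were, 6 of them by more than 2-fold. The share of all genes above both 0 h arrays was not counted, so these counts are descriptions. Calcr, Itgb3 and Oscar were not above the 0 h arrays at 24 h. The general macrophage markers Adgre1, Csf1r, Cd68, Itgam and Lyz2 kept high log2 values throughout: Csf1r, the M-CSF receptor, had 11.71 and 11.22 at 12 and 24 h and 10.76 and 11.87 at 48 and 72 h, and Cd68 lay between 12.45 and 12.62 in these arrays. The late arrays thus hold osteoclast markers on top of the macrophage markers, and the share of cells that had become osteoclasts is not given by these data.

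The promoters of 3 genes are shown because these are among the 15 largest rises and contain the letters TGGAAA, the core recognised by NFAT factors, within the 250 bases before the start. Sequences and starts are from RefSeq on GRCm38.p6, are written 5′ to 3′ on the strand of the gene, and the capitals mark TGGAAA or its reverse complement TTTCCA. Acp5 encodes tartrate-resistant acid phosphatase, Oscar a costimulatory receptor of osteoclasts, and Ccr1 a chemokine receptor. The Acp5 window is chr9:22130599-22130848, minus strand (1 of 3 starts listed for this gene), the Oscar window is chr7:3616158-3616407, minus strand, and the Ccr1 window is chr9:123968693-123968942, minus strand.
Acp5: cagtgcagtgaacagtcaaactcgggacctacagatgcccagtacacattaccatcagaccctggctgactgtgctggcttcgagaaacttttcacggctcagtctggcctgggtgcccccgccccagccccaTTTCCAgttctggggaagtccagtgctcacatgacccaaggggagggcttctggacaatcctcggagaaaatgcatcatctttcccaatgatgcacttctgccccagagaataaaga
Oscar: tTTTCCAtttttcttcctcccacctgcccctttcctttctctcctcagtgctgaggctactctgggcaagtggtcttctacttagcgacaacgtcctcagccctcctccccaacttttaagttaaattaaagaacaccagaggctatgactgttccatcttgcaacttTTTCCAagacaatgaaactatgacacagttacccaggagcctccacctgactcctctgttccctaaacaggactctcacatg
Ccr1: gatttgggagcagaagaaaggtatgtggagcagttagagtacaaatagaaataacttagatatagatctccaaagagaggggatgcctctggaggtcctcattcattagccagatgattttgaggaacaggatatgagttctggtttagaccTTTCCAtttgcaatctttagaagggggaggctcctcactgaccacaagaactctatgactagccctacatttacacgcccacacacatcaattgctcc
Of the 15 highest genes 9 had a promoter in the table, and 3 of these 9 held the letters in the 250 bases. Among the 15 lowest genes 14 had a promoter and 2 held them. The share of all genes with the letters in the 250 bases was not counted, so these counts are descriptions. Over the wider window from 250 bases before to 50 after the start, TGGAAA was found on either strand in 19.8% of 126 promoters of risen genes, 14.7% of 75 promoters of fallen genes and 17.6% of 15019 promoters of all genes tested. The AP-1 letters TGANTCA were in 7.9%, 13.3% and 5.8% of the same sets, and the PU.1 core GGAAGT in 15.1%, 33.3% and 26.7%. The M-box core CACATG of the MITF and TFE family was in 8.7%, 18.7% and 9.6%, and their E-box CACGTG in 4.8%, 5.3% and 9.2%. A match describes letters only and was not tested for binding.

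Of 15526 genes tested, 220 were called (1.42%) between the phases, of which 139 rose (0.895%) and 81 fell (0.522%), at an adjusted p under 0.05 (limma over all 16 arrays in 8 groups, Benjamini-Hochberg over all genes tested). The median difference over all genes was -0.01 on the log2 scale, in which all differences below are late minus intermediate. Of the risen genes 94 changed at least 2-fold and 20 at least 8-fold, and of the fallen genes 40 and 2. The median rise was 1.37 and the median fall -1.0. In all 220 genes the late arrays did not overlap the intermediate arrays. Over all genes tested both late arrays lay above both intermediate arrays in 18.3% and below them in 14.6%. At an unadjusted p under 0.05 (limma) there were 2095 of the 15526 genes, the background for such counts in the lists below. Centring every array on its median gave 119 risen and 118 fallen genes, so the split of 139 to 81 depends on the scaling. The count also depends on single arrays: leaving out the array at 12, 24, 48 or 72 h in turn gave 50, 272, 1024 and 105 genes, of which 47, 146, 199 and 84 were among the 220.

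**Figure D1:**
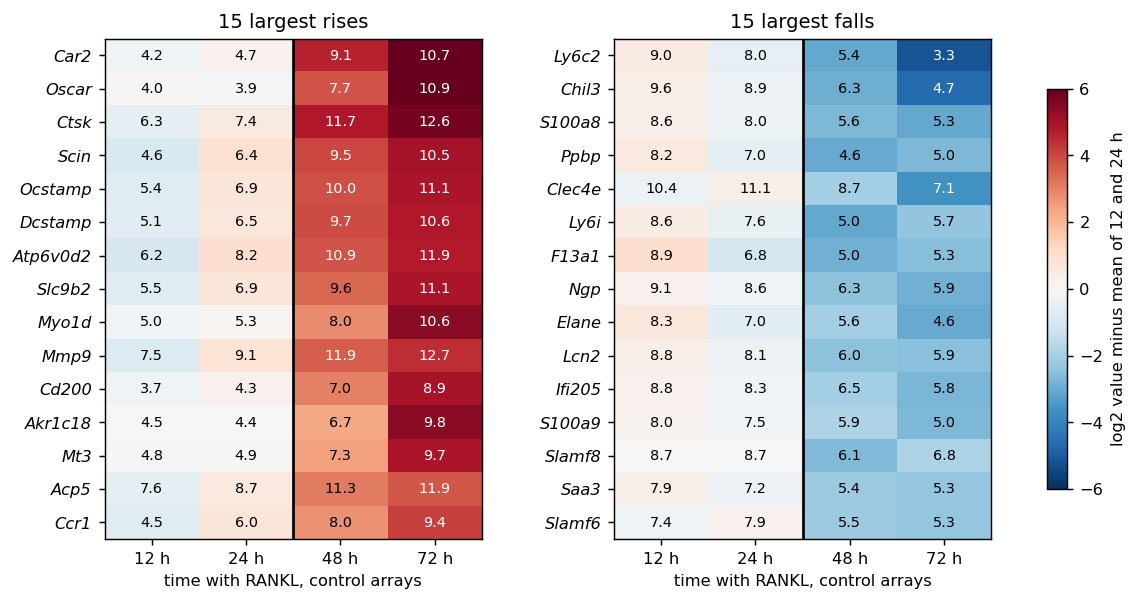
Log2 values of the 15 largest rises (left) and 15 largest falls (right) in the 4 control arrays at 12, 24, 48 and 72 h; the printed number is the value, and the colour is its difference from the mean of the 12 and 24 h arrays. In each of these 30 genes both arrays of one phase lie beyond both arrays of the other, as in all 220 called genes.

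The calls differ in how far they rest on single arrays. Of the 73 called genes named by the rule, 26 kept the call with each of the 4 arrays left out in turn: Car2, Ctsk, Acp5, Atp6v0d2, Dcstamp, Ocstamp, Scin, Src, Slc9b2, Fosl2, Cd200, Ext1, Slc18a1, Tm4sf19 and Pdha1 among the risen, and S100a8, S100a9, Ngp, Lcn2, Camp, Mmp8, Chil3, Ccl5, Slamf6, Axl and Cd36 among the fallen. The call ended in 1 case for 6 genes (Myo1d, Mst1r, Atp6v1b2, Ly6c2, Ppbp and Fcgr1, each without the 12 h array) and in 2 cases for 25 genes, mostly without the 12 or without the 72 h array, Mmp9, Prdm1, Pdhb, Ccr1, Elane, Marco, Ifi205, Ctsc, Galns and Fth1 among them. It ended in 3 cases for 14 genes, among them Oscar, Nfatc1, Mt3, Akr1c18, Spns2, Clec4e, F13a1 and Fcer1g, and in all 4 for Slamf8 and Cd79a.

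Several genes of acid secretion and matrix degradation were among the 15 largest rises. Car2, carbonic anhydrase II, which supplies protons for acid secretion, had log2 values of 4.21 and 4.69 at 12 and 24 h and 9.05 and 10.68 at 48 and 72 h. Both late arrays stood more than 4 log2 units above both earlier ones, and the rise was 5.42 ± 0.56 (SE, adjusted p = 0.0016, limma). Its intermediate values lie about the mean of 4.34 below which a gene was treated as dim, and whether they exceed background is not known, so the rise is given for the values as deposited. Car2 passed that limit only through its late arrays, where it is high, so its being tested depended on the rise. Ctsk, cathepsin K, the main collagen-degrading protease of osteoclasts, had 6.33 and 7.38, then 11.67 and 12.58. It rose by 5.27 ± 0.44 (adjusted p = 0.000744, limma), and most of the rise lay between 24 and 48 h. Mmp9, a gelatinase, had 7.47 and 9.13, then 11.95 and 12.73, and Acp5 had 7.56 and 8.73, then 11.28 and 11.89. Both were already above their 0 h values at 12 h (Mmp9 5.38 and 5.49, Acp5 6.61 and 6.64 at 0 h). Mmp9 rose by 4.04 ± 0.59 (adjusted p = 0.0072, limma) and Acp5 by 3.44 ± 0.44 (adjusted p = 0.00335, limma). Mmp14, a membrane-bound metalloproteinase, had 8.48, 8.98, 9.73 and 11.13 at 12, 24, 48 and 72 h. Its phases did not overlap, but the difference of 1.70 ± 0.52 did not pass (adjusted p = 0.156, limma). Without the 48 h array it was 2.40.

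The gene lists here and below were chosen with earlier results of these data known, so their counts and medians are descriptions. Over all genes tested 0.895% rose and 0.522% fell, the background for the called members of each list. The list of matrix degradation and acid secretion had 22 members tested, of which 7 rose and none fell, with a median of 0.56. Beside Car2, Ctsk, Mmp9, Acp5 and Atp6v0d2, these were Slc4a2, the chloride-bicarbonate exchanger of the basal membrane (7.06, 7.20, 8.46 and 9.52 in order of time; rise 1.86 ± 0.29), and Snx10, a sorting nexin needed for resorption (rise 1.57). The count of 7 was 4 without the 12 h array and 12 without the 48 h array. Slc9b2, a sodium-proton exchanger strongly induced in osteoclasts, was among the largest rises of the array (5.47 and 6.91, then 9.63 and 11.09; rise 4.17 ± 0.56, adjusted p = 0.00376, limma).

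Among subunits of the proton pump the d2 subunit, which is characteristic of osteoclasts, had by far the largest rise, and 2 widely expressed subunits rose by about 1 log2 unit or less. Atp6v0d2 had 6.15 and 8.20, then 10.95 and 11.93, a rise of 4.26 ± 0.58 (adjusted p = 0.0044, limma). It was at 5.34 and 5.41 at 0 h, so it too had begun to climb before 24 h. Atp6v1b2, the widely expressed B2 subunit of the ATP-hydrolysing sector, had 10.77 and 10.86, then 11.61 and 12.10, a rise of 1.04 ± 0.15 (adjusted p = 0.00503, limma). Atp6v1c1, another subunit of this sector, rose by 0.83 ± 0.16 (adjusted p = 0.0298, limma). These were the 3 of 17 subunits tested that rose; none fell, the median was 0.62, and 12 of 17 had both late arrays above both intermediate ones (18.3% of all genes). Without the 12, 48 or 72 h array 1, 10 and 2 subunits rose.

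The fusion genes Dcstamp and Ocstamp rose by similar amounts. They encode membrane proteins without which precursors do not fuse. Dcstamp had 5.13 and 6.45, then 9.72 and 10.58, and Ocstamp 5.43 and 6.91, then 10.04 and 11.05. At 12 h both were at their 0 h level (5.20 and 5.22 for Dcstamp, 5.27 and 5.48 for Ocstamp), and at 24 h both were more than 1 log2 unit above it. The rises were 4.37 ± 0.47 and 4.38 ± 0.49 (adjusted p = 0.00167 for each, limma). Of 16 fusion genes tested 4 rose and none fell, with a median of 0.65: these 2, Atp6v0d2, and the receptor tyrosine kinase Mst1r (4.89 and 4.68, then 6.81 and 8.89; rise 3.07 ± 0.50). Without the 48 h array 7 rose.

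Among genes of attachment and the actin ring, 4 of 29 tested rose and none fell, with a median of 0.32. Scin, an actin-severing protein of the gelsolin family, had 4.56 and 6.39, then 9.48 and 10.46, a rise of 4.49 ± 0.57 (adjusted p = 0.00335, limma). Src, the kinase needed for the ruffled border, had 6.54 and 7.04, then 8.88 and 9.69, a rise of 2.49 ± 0.28 (adjusted p = 0.00167, limma). The podosome proteins cortactin (Cttn, 1.08 ± 0.16) and paxillin (Pxn, 0.91 ± 0.16) rose by smaller amounts. In each of these 4 genes both late arrays were above both intermediate ones, as in all 139 risen genes. The motor protein gene Myo1d, which was in none of the lists, had 4.97 and 5.33, then 7.97 and 10.56, and rose by 4.12 ± 0.65 (adjusted p = 0.0109, limma; 0.101 without the 12 h array). Without the 12 or the 72 h array 2 of the 29 rose, and without the 24 or the 48 h array 6 and 8.

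Some osteoclast genes were high mainly at 72 h, and these did not pass the test. Itgb3, the β3 chain of the vitronectin receptor that anchors osteoclasts to bone, had 6.20, 5.85, 6.84 and 9.90 at 12, 24, 48 and 72 h. The 72 h array alone stood far above the rest, and the difference of 2.35 ± 0.78 had an adjusted p of 0.20 (limma). Calcr, the calcitonin receptor, had 3.84, 3.98, 5.31 and 8.99 (3.25 ± 0.90, adjusted p = 0.120, limma), and Steap4, a metalloreductase, had 3.89, 3.64, 5.48 and 9.41 (3.68 ± 1.01, adjusted p = 0.118, limma). In all 3 genes the phases did not overlap, and the distance between 48 and 72 h exceeded that between 24 and 48 h. With the 48 h array left out, the difference between 72 h and the intermediate phase was 3.88 for Itgb3, 5.08 for Calcr and 5.65 for Steap4. The genes are grouped here by their high 72 h value, so these larger differences follow from the grouping. With 1 array at 72 h they are descriptions. In Calcr and Steap4 the 12 and 24 h values also lay below the limit under which a gene's mean was treated as dim. Whether these values exceed background is not known, so the sizes of the rises in Calcr and Steap4 are given for the values as deposited.

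**Figure D2:**
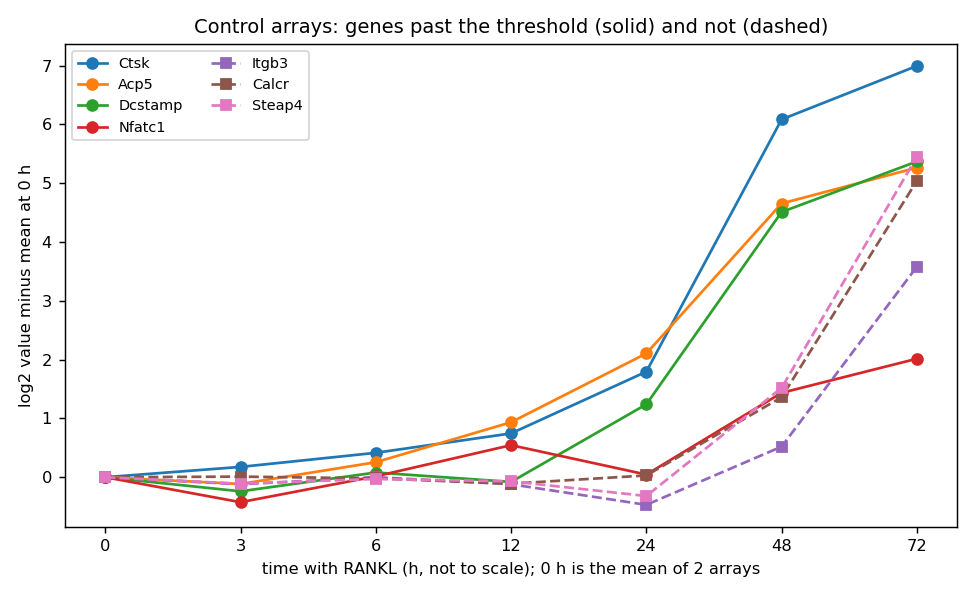
Log2 value minus the mean of the 0 h arrays over the control time course for genes past the threshold (Ctsk, Acp5, Dcstamp and Nfatc1, solid) and not past it (Itgb3, Calcr and Steap4, dashed); each point is 1 array, except 0 h, the mean of 2. The solid lines climb mainly between 24 and 48 h and the dashed ones mainly between 48 and 72 h.

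Timing within the step was described over all called genes from the single arrays. The median change of the 139 risen genes was 0.11 from 12 to 24 h, 1.02 from 24 to 48 h and 0.49 from 48 to 72 h. Of them 127 were still higher at 72 h than at 48 h (48.5% of all genes were). The median change of the 81 fallen genes was -0.21, -0.93 and -0.05 over the same intervals, and 45 of 81 were lower at 72 h than at 48 h. In most risen genes the 72 h value was thus above the 48 h value. The fallen genes were about evenly divided in the last interval, as were all genes tested (48.5% higher at 72 h). The 48 and 72 h values themselves set the calls, so these counts are descriptions. The risen genes' mean of 12 and 24 h differed from 0 h by a median of 0.01 and their late mean by 1.32. The 24 to 48 h interval joins the phases, so the calls favour genes that moved there. Neighbouring times within a phase differed widely across the array: 1165 genes differed at least 2-fold between 48 and 72 h and 1041 between 12 and 24 h.

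Receptors and costimulation gave a mixed picture. Oscar, which pairs with the Fc receptor γ chain to raise calcium signals, had 4.03 and 3.88 at 12 and 24 h, 7.71 at 48 h and 10.88 at 72 h. It was at its 0 h level (4.06 and 3.78) through 24 h, below the value of 4.34 under which a gene's mean was treated as dim, so its rise of 5.34 ± 0.93 (adjusted p = 0.0182, limma) starts from the bottom of the scale. Oscar passed that limit only through its late arrays, where it is high, so its being tested depended on the rise. Fcer1g, the γ chain itself, had 12.56 and 12.27, then 11.80 and 12.02, and fell by 0.50 ± 0.11, just inside the threshold; the call was lost with no filter, quantile normalization, no trend, robust eBayes or mean features. Oscar and Fcer1g were the only 2 of 21 costimulatory and calcium signalling genes called, and the median was -0.03 (0.01 after quantile normalization). Trem2 (-0.51 ± 0.14, adjusted p = 0.109, limma) and Lcp2, the adaptor SLP-76 (0.48 ± 0.15, adjusted p = 0.186, limma), were not called. Without the 24 h array 1 gene of this list fell and none rose, and without the 12 or the 72 h array none was called by limma.

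Among 17 receptors and signalling proteins of late osteoclasts 3 rose, Oscar, Cd200 and F2r, and none fell, with a median of 0.04 (-0.02 after centring). Cd200, a ligand that engages CD200R on myeloid cells, had 3.72 and 4.26, then 7.03 and 8.94, a rise of 3.99 ± 0.46 (adjusted p = 0.00186, limma) from values below the dim limit of 4.34, which the gene passed only through its late arrays. F2r, the thrombin receptor PAR1, had 5.61 and 5.17, then 7.10 and 9.57, a rise of 2.95 ± 0.56 (adjusted p = 0.0278, limma). Tnfrsf11a, which encodes RANK, had 7.80 and 9.59, then 9.47 and 9.21, so its phases overlapped (0.65 ± 0.55, adjusted p = 0.669, limma). Csf1r overlapped as well (-0.15 ± 0.30, adjusted p = 0.879, limma). The number of risen genes was 1 without the 12 or the 24 h array and 6 without the 48 h array. Ccr1 had a course of its own among the largest rises: it was at 7.41 and 7.30 at 0 h, 4.53 and 6.01 at 12 and 24 h, and 8.03 and 9.38 at 48 and 72 h. Its rise of 3.44 ± 0.61 (adjusted p = 0.0194, limma) starts from values below those at 0 h, and both late arrays were above the 0 h arrays; without the 12 or the 72 h array the adjusted p was 0.171 and 0.124 (limma).

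Among genes of RANK signalling and transcription control, 4 transcriptional regulators rose. Nfatc1 had 8.79 and 8.29, then 9.68 and 10.26, a rise of 1.43 ± 0.27 (adjusted p = 0.0278, limma). It was at 8.25 and 8.24 at 0 h, so the 24 h array was at the starting level and both late arrays above it. Leaving out the 12, 24 or 72 h array ended the call of Nfatc1, with an adjusted p of 0.0713, 0.102 and 0.163 (limma), with rises of 1.68, 1.18 and 1.14. Fosl2, an AP-1 subunit, had 7.23 and 8.13, then 9.87 and 10.51 (2.51 ± 0.28, adjusted p = 0.00167, limma). Prdm1, the repressor Blimp1, which silences inhibitors of osteoclast formation, had 6.67 and 6.81, then 8.20 and 9.11 (1.92 ± 0.33, adjusted p = 0.0159, limma). The DNA methyltransferase Dnmt3a rose by 0.89 ± 0.16. These were the 4 of 26 RANK signalling and transcription factor genes that rose; none fell, and the median was 0.31. Bhlhe40 had 6.57, 8.59, 9.86 and 10.02 and missed the threshold (2.36 ± 0.53, adjusted p = 0.0562, limma). Without the 12 or the 72 h array 1 of the 26 rose, and without the 24 or the 48 h array 6 and 7.

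Of 15 repressors of osteoclast differentiation limma called none, and 1 was at an unadjusted p under 0.05 (2095 of all 15526 genes were). Irf8, a repressor of NFATc1, had 8.94 and 7.22, then 6.54 and 8.15. The 72 h value lay between those at 12 and 24 h, so the phases overlapped (-0.74 ± 0.58, adjusted p = 0.640, limma), and leaving out the array at 12, 24, 48 or 72 h gave differences of 0.13, -1.60, 0.07 and -1.54. Bcl6 had 7.02 and 7.99, then 6.74 and 6.76 (-0.75 ± 0.36, adjusted p = 0.396, limma), and Id3 was at 5.06, 6.74, 6.12 and 7.56. The median of the list was 0.01 (-0.04 after centring).

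**Figure D3:**
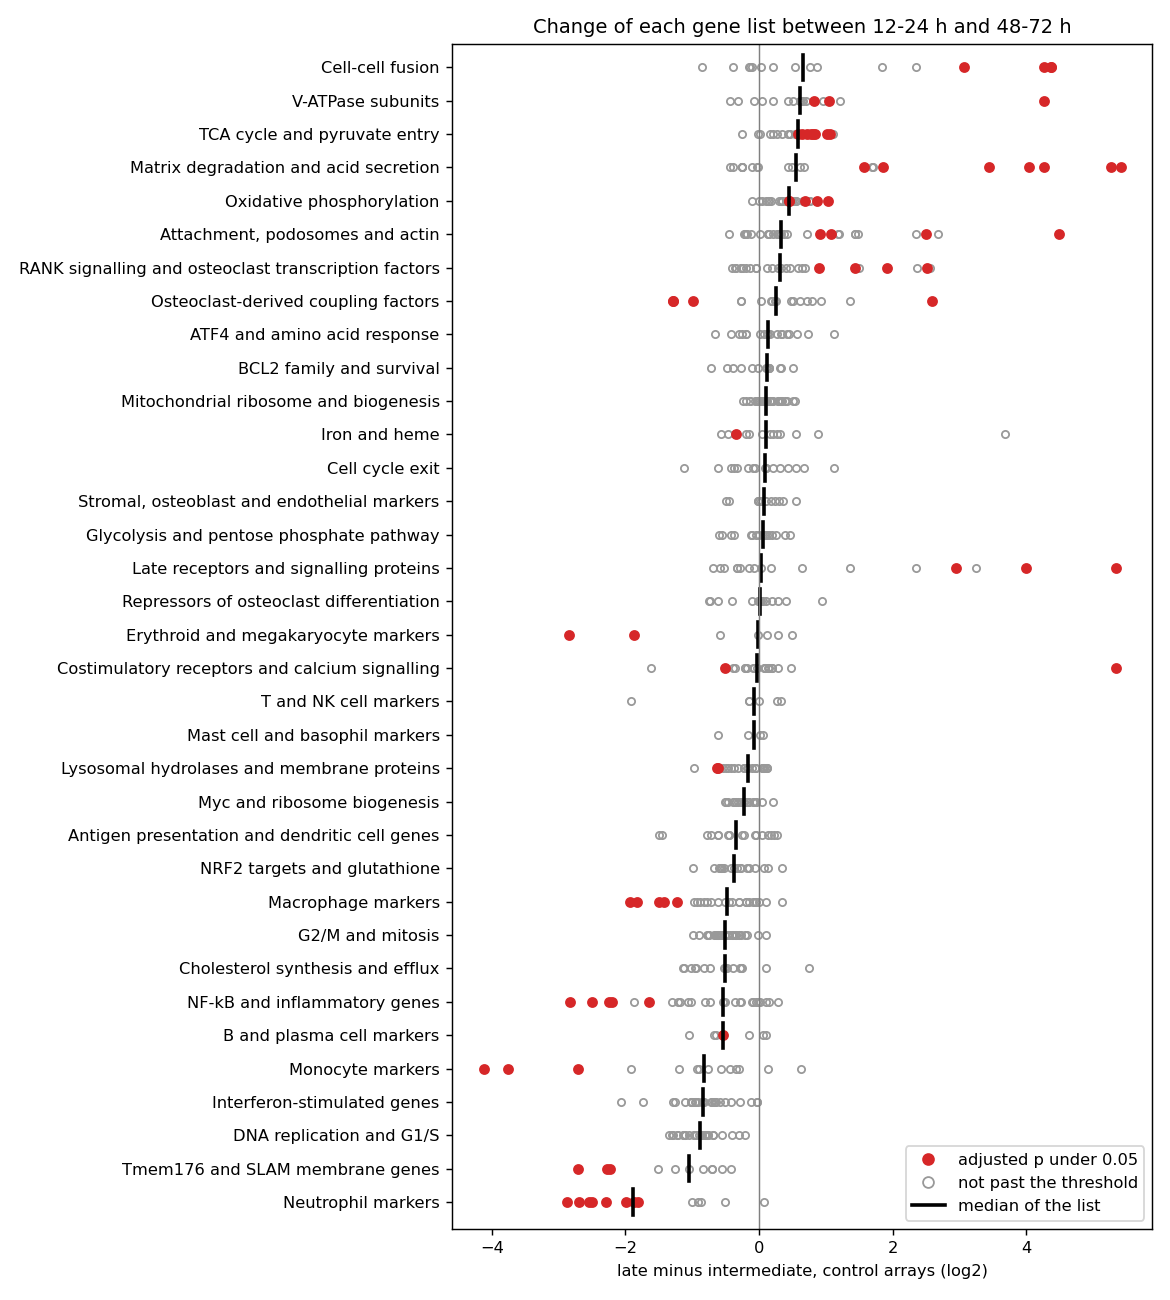
Late minus intermediate difference (log2) of every tested member of the gene lists in the control arrays, lists ordered by their median (black bars); filled points passed an adjusted p of 0.05. The fusion list has the highest median, 0.65, followed by V-ATPase, TCA cycle and matrix degradation, and the neutrophil list has the lowest, -1.89. The lists were chosen with earlier results of these data known, so their order is a description.

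The genes of mitochondrial energy metabolism that passed the test rose by about 1 log2 unit or less. Of 22 genes of the TCA cycle and pyruvate entry 8 rose and none fell, with a median of 0.58. Among them were 4 genes of the pyruvate dehydrogenase complex, which turns pyruvate into acetyl-CoA. Pdha1 had 8.14 and 8.28, then 9.14 and 9.31 (1.02 ± 0.12, adjusted p = 0.0032, limma), and Pdhb had 8.63 and 8.78, then 9.57 and 9.98 (1.07 ± 0.17, adjusted p = 0.00998, limma). In both genes the arrays within a phase lay close together compared with the step. Dlat (0.81 ± 0.14) and Dld (0.72 ± 0.13) also rose, as did citrate synthase, Cs (0.64 ± 0.10), Dlst, Mdh2 and Idh3g. The count was 6 after centring, 1 without the 12 or the 72 h array, and 12 without the 48 h array.

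Of 34 genes of oxidative phosphorylation 5 rose and none fell, with a median of 0.44, and 25 of 34 had both late arrays above both intermediate ones (18.3% of all genes). Cyc1 (1.03 ± 0.19, adjusted p = 0.0223, limma) and Uqcrc2 (0.86 ± 0.14, adjusted p = 0.0116, limma) belong to complex III, Ndufs1 (0.68 ± 0.13) to complex I, and Atp5b and Atp5a1 (0.45 ± 0.08 each) to ATP synthase. Cyc1 had 7.93 and 8.15, then 8.77 and 9.36. Leaving out the 12 or the 72 h array, limma called none of the 34 (23 and 14 at an unadjusted p under 0.05). It called 3 when the 24 h array was left out and 17 when the 48 h array was. Mitochondrial ribosome genes (29 tested, median 0.11, 3 at an unadjusted p under 0.05) and genes of glycolysis and the pentose phosphate pathway (17 tested, median 0.06, 3 at an unadjusted p under 0.05) had no call by limma. Over all genes 2095 of 15526 were at an unadjusted p under 0.05 (limma). Of 14 iron and heme genes only the ferritin heavy chain Fth1 was called, which fell by 0.35 ± 0.06 from a narrow range (12.93, 12.88, 12.53 and 12.58) and was not called without a variance trend. Cholesterol genes had a median of -0.52 over 17 members and no call by limma (3 at an unadjusted p under 0.05); Sqle had 7.98, 7.97, 7.66 and 6.06.

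Of the 24 members tested of a list of lysosomal hydrolases and membrane proteins none rose and 2 fell, with a median of -0.17. Ctsc, dipeptidyl peptidase I, had 11.68 and 11.32, then 10.81 and 10.92 (-0.64 ± 0.12, adjusted p = 0.0231, limma), and Galns, a sulfatase, fell by 0.61 ± 0.13. Neither was called without the 12 h array or without the 72 h array. Arsb, another sulfatase, which was not in the list and is named because it differed between treatments, had 8.40 and 7.79, then 9.73 and 11.28 and rose by 2.41 ± 0.44 (adjusted p = 0.0231, limma).

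Monocyte and neutrophil genes were among the 15 largest falls. Ly6c2, the surface marker of inflammatory monocytes, had 8.97 and 8.03 at 12 and 24 h and 5.44 and 3.33 at 48 and 72 h. Its fall of 4.12 ± 0.56 on the log2 scale (adjusted p = 0.00425, limma) ends at a 72 h value below the dim limit of 4.34, so its size is given for the values as deposited. Chil3, a chitinase-like protein of monocytes, had 9.61 and 8.88, then 6.31 and 4.65 (-3.77 ± 0.49, adjusted p = 0.00357, limma). F13a1, the A chain of coagulation factor XIII, had 8.89 and 6.85, then 5.01 and 5.32 (-2.71 ± 0.54, adjusted p = 0.0349, limma), after 10.07 and 10.08 at 0 h. Ly6c2 and Ly6i have close relatives in the genome, and probes may share sequence with these. These 3 monocyte genes, of 14 tested, fell and none rose, with a median of -0.83. Ccr2, which defines the same monocytes, had 7.90 and 6.36, then 4.86 and 5.56 (-1.92 ± 0.52, adjusted p = 0.115, limma). Without the 12, 24 or 72 h array 1, 6 and 2 monocyte genes fell.

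Of 14 neutrophil markers 8 fell (0.522% of all genes did) and none rose, with a median of -1.89. S100a8 and S100a9, the subunits of calprotectin, had 8.64 and 7.99, then 5.62 and 5.26, and 7.97 and 7.55, then 5.89 and 5.05. They fell by 2.88 ± 0.29 (adjusted p = 0.0016, limma) and 2.28 ± 0.27 (adjusted p = 0.00284, limma). The granule genes Ngp (-2.69 ± 0.35), Elane (-2.54 ± 0.45), Lcn2 (-2.50 ± 0.28), Ltf (-1.99), Camp (-1.87 ± 0.19) and Mmp8 (-1.81 ± 0.23) fell too. The fall was not steady from 0 h: S100a8 had 8.36 and 8.32, Ngp 8.88 and 8.89, and Lcn2 8.51 and 8.51 at 0 h, so all 3 were at or above these values at 12 h and well below them at 48 h. The mean log2 value over the 14 markers was 7.26 and 7.28 at 0 h, 7.41 and 6.69 at 12 and 24 h, and 5.42 and 5.29 at 48 and 72 h. With any 1 of the 4 arrays left out, between 7 and 10 of the 14 fell. In bulk RNA, fewer cells of a type and less RNA per cell cannot be told apart.

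Ppbp and Pf4, chemokines of platelets and megakaryocytes, were the 2 of 7 erythroid and megakaryocyte markers that fell (-2.84 ± 0.42 and -1.88 ± 0.39). Over all genes tested 0.522% fell. Ppbp had 8.20 and 7.05, then 4.61 and 4.95, and Pf4 10.13 and 9.04, then 7.35 and 8.07. Without the 48 or the 72 h array 1 of the list fell, and without the 12 h array none did. Cd79a was the 1 of 7 B and plasma cell markers called, at values close to the dim range throughout (4.72, 4.75, 4.09 and 4.28), and its call was lost with any 1 array left out. T and NK cell markers (6 tested), mast cell and basophil markers (4 tested) and stromal, osteoblast and endothelial markers (12 tested) had no call by limma, with 1 gene of each list at an unadjusted p under 0.05 (2095 of all 15526 genes were). Their mean log2 values ranged from 5.48 to 6.10, 4.35 to 4.73 and 5.16 to 5.35 over the 4 arrays. Many members of these 3 lists were among the dim genes left out: 6 of 14, 4 of 12 and 12 of 20 found were tested. Cd4 stood apart from the other T cell markers: it had 4.77 and 4.96 at 0 h and 9.65, 8.69, 7.44 and 10.60 from 12 to 72 h, while Cd3d, a defining T cell gene, stayed between 4.17 and 4.81 in these 4 arrays. The part of other cell types in the step was not tested.

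Macrophage markers fell in part. Of 26 tested 5 fell (0.522% of all genes did) and none rose, with a median of -0.48. Axl, a receptor for dying cells, had 8.71 and 8.53, then 6.84 and 6.53 (-1.93 ± 0.19, adjusted p = 0.0016, limma). Cd36, a scavenger receptor, had 10.95 and 11.03, then 9.97 and 9.53 (-1.24 ± 0.13, adjusted p = 0.0016, limma). Marco (-1.83 ± 0.27), the fractalkine receptor Cx3cr1 (-1.49 ± 0.24) and the high-affinity Fc receptor Fcgr1 (-1.42 ± 0.23) were the others. In these 5 genes the phases did not overlap, as in all 220 called genes. Without the 12 h array 3 fell. The mean over the 26 markers was 10.04 and 9.65 at 12 and 24 h and 8.97 and 9.50 at 48 and 72 h, so the 48 h array held the lowest value.

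Some inflammatory genes that stood above their 0 h values in the intermediate phase fell late. Of 27 NF-kB and inflammatory genes 5 fell and none rose, with a median of -0.54; 1 of them, Lcn2, is also a neutrophil granule gene. Clec4e, the receptor Mincle, had 10.37 and 11.09, then 8.69 and 7.10 (-2.83 ± 0.60, adjusted p = 0.0448, limma), with 8.33 and 8.30 at 0 h. Ccl5, a chemokine, had 9.09 and 8.32, then 6.47 and 6.54 (-2.20 ± 0.22, adjusted p = 0.0016, limma), with 6.73 and 6.68 at 0 h. Saa3, an acute phase protein, had 7.92 and 7.21, then 5.38 and 5.26 (-2.24 ± 0.33, adjusted p = 0.00743, limma), with 5.51 and 5.21 at 0 h. In Ccl5 and Saa3 the late values lay close to those at 0 h. Complement factor B (Cfb) fell by 1.65 ± 0.33. Without the 12 or the 72 h array 2 of these genes fell.

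A similar course was seen in 3 of 11 genes of the Tmem176 and SLAM list, whose median was -1.04. Slamf8 had 5.45 and 4.91 at 0 h, 8.71 and 8.66 at 12 and 24 h, and 6.06 and 6.77 late (-2.27 ± 0.48, adjusted p = 0.0456, limma). Slamf6 had 4.66 and 4.64, then 7.36 and 7.91, then 5.47 and 5.31 (-2.24 ± 0.28, adjusted p = 0.00335, limma), and Ly6i had at most 4.41 at 0 h, then 8.56 and 7.64, then 5.05 and 5.73 (-2.71 ± 0.49, adjusted p = 0.0218, limma). All 3 were lowest at 0 h and highest in the intermediate phase among these arrays. Slamf8 lost its call with any 1 array left out, and without the 12, 48 or 72 h array 1, 2 and 1 of the list fell. Ifi205, an interferon-inducible gene with close relatives, was also highest in the intermediate phase (6.37 and 6.34 at 0 h, then 8.78 and 8.31, then 6.51 and 5.79; -2.39 ± 0.39).

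Interferon-stimulated genes had a median of -0.83 over 26 members, and 16 of them lay lower in both late arrays than in both intermediate ones (14.6% of all genes), but none was called by limma (12 at an unadjusted p under 0.05, against 2095 of all 15526 genes). Bst2, an antiviral membrane protein, came nearest (11.13 and 10.65, then 10.23 and 9.50; adjusted p = 0.0506, limma). Without the 24 h or the 48 h array 6 and 5 of the list were called. Antigen presentation genes had no call by limma over 18 members (5 at an unadjusted p under 0.05); H2-Aa had 7.94 and 7.97 at 12 and 24 h, 5.50 at 48 h and 7.51 at 72 h, so only the 48 h array was low.

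Factors that osteoclasts release and that act on bone-forming cells gave 1 rise and 3 falls among 18 tested, with a median of 0.25. Spns2, an exporter of sphingosine 1-phosphate, had 5.55 and 5.65, then 7.38 and 8.99 (2.58 ± 0.50, adjusted p = 0.0295, limma). Cxcl16 had 10.73 and 10.56, then 9.03 and 9.68 (-1.29 ± 0.25, adjusted p = 0.0295, limma), and Igf1 had 9.97 and 9.96, then 8.21 and 9.16 (-1.28 ± 0.25, adjusted p = 0.0287, limma). Galectin 9 (Lgals9) fell by 0.99 ± 0.20. Without the 48 h array 6 of the list rose and 2 fell, without the 24 or the 72 h array 1 and 2 fell and none rose, and without the 12 h array none was called by limma (9 at an unadjusted p under 0.05).

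Growth genes differed widely between the arrays within the late phase. The 29 genes of G2/M and mitosis had no call in the step by limma (1 at an unadjusted p under 0.05, against 2095 of all 15526 genes). They had a median of -0.50, and none of them separated the phases. Their mean relative to 0 h was -0.49 and -0.53 at 12 and 24 h, -0.05 at 48 h and -1.94 at 72 h, and all 29 were lower at 72 h than at 48 h. The 28 genes of DNA replication and G1/S stood at -0.90 and 0.21 in the intermediate arrays and -0.33 and -2.13 in the late ones, with no call by limma (3 at an unadjusted p under 0.05) and a median of -0.88. Birc5, survivin, an example of the mitotic list, had 7.13, 7.24, 7.39 and 5.02. The 21 Myc and ribosome biogenesis genes stood at -0.95 and 0.70 in the intermediate and 0.40 and -1.08 in the late arrays. The step averages the times within a phase: without the 48 h array 26 of the mitotic genes and 8 of the replication genes were called lower, with medians of -1.47 and -1.79, and without the 72 h array the mitotic median was 0.45. Genes of cell cycle exit (median 0.09 over 17), the BCL2 family (0.12 over 14), the ATF4 response (0.13 over 19) and NRF2 targets (-0.37 over 19) had no call by limma, with 2, 0, 1 and 5 genes at an unadjusted p under 0.05.

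**Figure D4:**
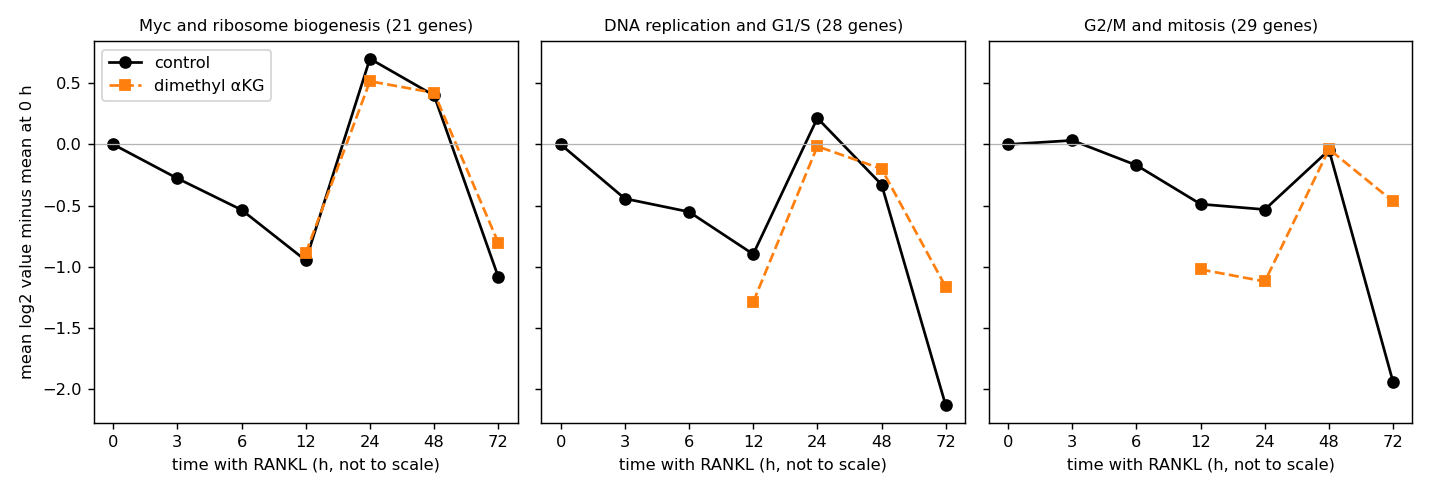
Mean log2 value relative to 0 h of 3 growth lists over time in control (black) and dimethyl αKG (orange) arrays, 1 array per point except 0 h, the mean of 2. In control arrays each list has its lowest value at 72 h, between -1.08 and -2.13.

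The same step in the cultures with dimethyl αKG had the same direction in most of these genes and smaller sizes. There limma called 9 genes (0.058%), 2 higher (0.0129%) and 7 lower (0.0451%) in the late phase. Ctsk (4.35) and Fam102a (1.70) rose, and S100a8 (-2.61), Ngp (-2.63), Lcn2 (-2.36), S100a9 (-2.09), Ltf (-1.93), Mmp8 (-1.65) and Axl (-1.56) fell. All 9 were also called in the control step. Of the 139 genes risen in control 136 (97.8%) had an αKG step above 0, against 48.8% of all genes tested, with a median of 0.55. Of the 81 fallen genes 80 (98.8%) had an αKG step below 0, against 51.2% of all genes, with a median of -0.53. The control step was the larger in 138 of the risen and 77 of the fallen genes. The genes were called on the control step, which by itself makes the control values the larger, so these counts are descriptions.

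A test of the difference between the steps, with time as a block, called 16 genes (0.103%), all with the larger rise in control, and 0 genes the other way. The 0 is by limma, which had 1821 genes at an unadjusted p under 0.05 in either direction. A robust variance model called 21 genes, 1 of them the other way. Over all genes tested the difference was above 0 in 48.8% and below 0 in 51.2%. In Oscar the αKG arrays had 3.91 and 3.72, then 5.01 and 8.0, a step of 2.69 against 5.34 in control, and the difference was 2.65 ± 0.19 (adjusted p = 0.00348, limma). In Dcstamp they had 5.12 and 6.14, then 7.56 and 8.47, and the difference was 1.98 ± 0.19 (adjusted p = 0.0103, limma). In both genes the late αKG arrays were above the intermediate ones too, but at 72 h they lay more than 2 log2 units below the control. Car2 (αKG 4.19, 4.56, 6.94 and 8.70) differed by 1.97 ± 0.20 (adjusted p = 0.0103, limma), Ocstamp by 1.94 ± 0.23 and Slc9b2 by 1.82 ± 0.22 (adjusted p = 0.0193 for each, limma). Oscar and Car2 passed the limit for dim genes only through their late arrays. Ctsk (0.92 ± 0.26, adjusted p = 0.240, limma), Acp5 (0.78 ± 0.20, adjusted p = 0.208, limma) and Mmp9 (0.37 ± 0.18, adjusted p = 0.477, limma) were not called different. Neither were the neutrophil genes S100a8 (-0.27 ± 0.20, adjusted p = 0.662, limma) and Ngp (-0.06 ± 0.24, adjusted p = 0.957, limma).

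The proton pump subunits Atp6v1b2 (0.77 ± 0.11, adjusted p = 0.0449, limma) and Atp6v1d (0.98 ± 0.13, adjusted p = 0.0352, limma) were among the 16. Atp6v1d had 9.27 and 8.66, then 9.71 and 10.63 in control and 9.39 and 8.79, then 8.97 and 9.66 with αKG, and it was the only one of the 16 not called in the control step. The 2 subunits, like Slc4a2 and Car2, belong to acid secretion, but Atp6v0d2, Atp6v1c1 and Snx10, which also rose in control, were not among the 16. The calls rest on 3 residual degrees of freedom, and all 16 were lost without the 12 h or the 24 h pair of arrays. Without the 48 h or the 72 h pair the 16 were kept, but genes were then called in both directions. Each of these fits leaves 1 pair of arrays in a phase. With the αKG growth lists beside them, the mitotic genes stood at -0.47 at 72 h with αKG against -1.94 in control.

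**Figure D5:**
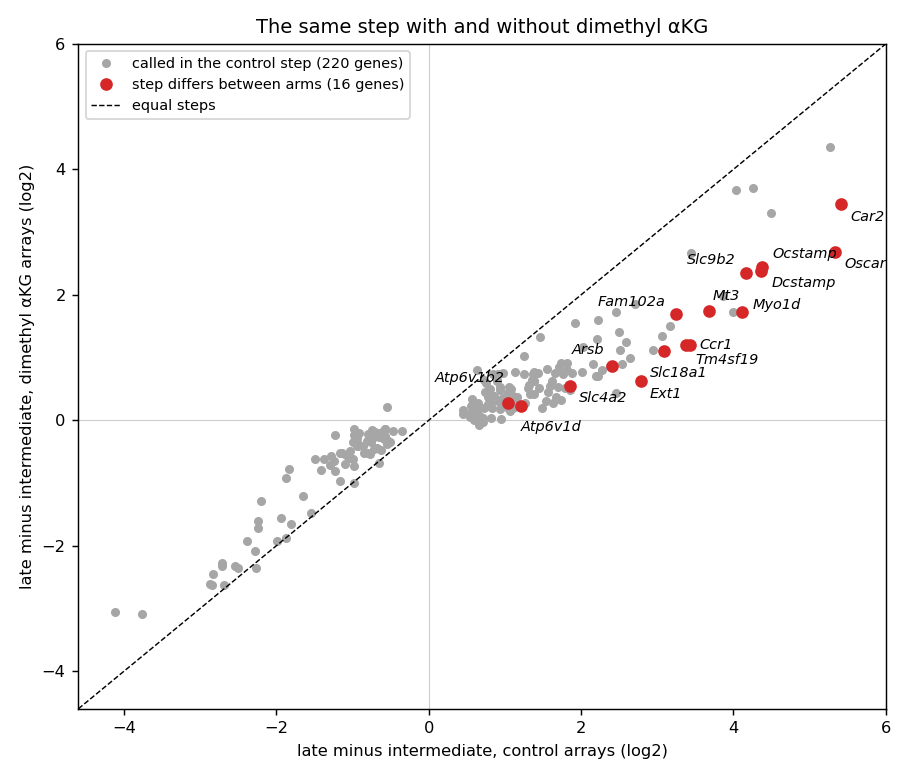
Late minus intermediate difference (log2) of the 220 genes called in the control step, in control (x) and dimethyl αKG arrays (y); red points are the 16 genes whose step differed between the treatments, 1 of which was not among the 220, and the dashed line marks equal steps. The red genes lie below the line, with differences of 0.77 to 2.65.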

How the data were processed

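The labels' protocols name total RNA, biotin labelling of fragmented sense cDNA with a GeneChip WT terminal labelling kit, and no replicate cultures. The deposited value table holds log2 values of the 16 arrays, one per array, with array medians of 4.84 to 4.93; that the scale is log2 is read from the values (0.613 to 13.25), and how the authors corrected, summarised and normalized them is not given in the sources used here. Of 33793 features 23521 carry 1 gene symbol, 1814 several and 8458 are unnamed here. For each of 22180 genes the feature with the highest mean over 16 arrays was kept (1082 genes had more than 1), and the lowest 30% by mean (up to 4.34) were left out, leaving 15526. limma 3.58.1 in R 4.3.3 (lmFit, eBayes with trend, two-sided, Benjamini-Hochberg over all genes tested, threshold 0.05) was fitted to 8 groups of 2 arrays, with 8 residual degrees of freedom. Each array is its own time, so time cannot be a block in the step. The difference between treatments was fitted on the 12 arrays from 3 to 72 h, with time as a block and 1 αKG effect per phase. Scripts were tested on simulated data.

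The 35 gene lists have 767 members, 701 found on the array and 657 tested (637 different genes). They, the members and the rules were chosen with earlier results of these data known. Genes named are the 15 highest and 15 lowest called differences, up to 5 of each list with the smallest p, the 10 highest between treatments, and preset osteoclast genes, leaving out predicted and clone-named genes; Snx10, Slc4a2, Arsb, Fam102a, Ltf, Dlst, Mdh2 and Idh3g complete counts and were named after their values were seen. Alternatives were other filters, scalings, variance models and features, fewer arrays, a line in log2 time, and each array left out. The number of arrays limits the precision.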

Additional observations from a re-analysis of the deposited data

Results flagged for a closer look

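The step from 12 and 24 h to 48 and 72 h differed between control and dimethyl αKG cultures in 16 genes, by a test of the difference itself (limma, time as a block). All 16 rose more in control, and the values are the control step minus the αKG step on the log2 scale. The differences were 2.65 in Oscar, 2.40 in Myo1d, 2.23 in Ccr1, 2.18 in Tm4sf19, 2.16 in Ext1 and 1.99 in Slc18a1. They were 1.98 in Dcstamp, 1.97 in Car2, 1.94 in Mt3, 1.94 in Ocstamp and 1.82 in Slc9b2. The smaller ones were 1.55 in Fam102a, 1.54 in Arsb, 1.31 in Slc4a2, 0.98 in Atp6v1d and 0.77 in Atp6v1b2. Oscar and Car2 passed the limit for dim genes only through their late arrays.

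The less known genes of this group had both late control arrays above both intermediate ones, which choosing genes with the larger control step favours. Whether their timing matched that of the osteoclast markers was not tested. Tm4sf19, a tetraspan membrane protein, had 7.19 and 7.28, then 9.84 and 11.38 in control, and 7.53 and 7.74, then 8.32 and 9.34 with αKG. Ext1, a heparan sulfate polymerase, had 6.83 and 7.06, then 9.15 and 10.31 in control, and with αKG 7.76 and 7.26, then 7.80 and 8.46. Slc18a1, a vesicular monoamine transporter, had 4.35 and 4.69, then 7.08 and 8.15 in control, and 4.72 and 4.68, then 5.32 and 6.28 with αKG. Mt3, a metallothionein, had 4.79 and 4.89, then 7.31 and 9.74 in control, and 4.65 and 4.92, then 5.41 and 7.65 with αKG. Fam102a had 7.31 and 7.54, then 10.51 and 10.83 in control, with late arrays closer together than in the other 4 genes of this paragraph, and 7.53 and 7.48, then 9.22 and 9.20 with αKG.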

How the results depend on the processing

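In the control step the count of 220 genes stayed between 188 and 245 under no filter, a stricter filter, quantile normalization, centring, other variance models and mean features. It was 25 with the 8 control arrays alone in the fit, 0 with just the 4 arrays compared (732 at an unadjusted p under 0.05, limma) and 0 for a line in log2 time (1027 unadjusted); these fits have 4, 2 and 2 residual degrees of freedom against 8. Leaving out 1 array gave 50 to 1024 genes. Of the 73 called genes named, 73 kept the call after centring, 69 after quantile normalization, 15 with the 8 control arrays alone, 0 with the 4 arrays or the line in time, and 27, 58, 66 and 35 without the 12, 24, 48 or 72 h array. Directions did not turn in any alternative run; a filter on the lowest 50% left 67 of the 73 tested. In the αKG step fitting its 4 arrays alone turned the count of 9 into 0 (574 at an unadjusted p under 0.05, limma), and it was 0 to 11 with 1 array left out. In the difference between treatments the count of 16 was 6 without a trend, 0 without the time block (573 unadjusted, limma), 5 in a fit of the 8 arrays from 12 to 72 h, and 0 to 1131 with the pair of 1 time left out. The causes of these shifts beyond fewer degrees of freedom were not tested. No paired analysis was possible for the step itself because each array is its own time and the phases share no replicate. With 2 arrays per phase, genes that change between times within a phase are the least likely to be called.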
